A study of Drosophila melanogaster with 6 samples.

Results

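Genes grouped by name with the nucleolus and small nucleolar ribonucleoproteins (snoRNPs) were examined in a comparison of the Drosophila melanogaster cell lines Kc167 and SL2. They were chosen by symbol, as genes named Nop followed by a digit, Fib or NHP2, with a ratio on each of 6 spotted cDNA arrays. The fly annotation holds 6 genes of these names. Of these, 4 were on the arrays under a single current symbol, and all 4 (Nop60B, Nop10, Fib and Nop17l) had complete values among 7201 features, the named genes and unnamed clones that had them. Nop56 and NHP2 were not analysed here, and may lie among the 4985 unnamed clones with complete values. The rule asked only for a value on every array, and no gene was lost to it. The group was, however, proposed with earlier results of these data known, so its ratios, ranks and p-values describe chosen genes and are not independent support.

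Both lines are established lines of embryonic origin with properties of blood cells, and both were untreated. Dense cultures grew at 22 °C with 20 µg/mL gentamicin. The medium was Schneider's, with 5% fetal bovine serum, for Kc167, and CCM3 for SL2. Every array carried cDNA of both lines, with Kc167 in Cy5 and SL2 in Cy3 on 3 arrays and the dyes exchanged on the 3 arrays called flipped. Line and medium cannot be told apart, and a ratio does not separate less RNA per cell from fewer cells with the RNA. Whether replicates were separate cultures is not given in the sources used here, so a p-value measures only the spread between these arrays, which may be technical.

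The nucleolus is where ribosomal RNA is made, modified and assembled into ribosomal subunits. Box H/ACA snoRNPs use a guide RNA to direct the conversion of uridine to pseudouridine, and box C/D snoRNPs direct the methylation of ribose. Dividing cells depend on both for their ribosomes, and the protein parts are among the classic genes of cell growth. Nop60B is the fly dyskerin, the pseudouridine synthase of the box H/ACA particle, whose mutants are known as minifly. Nop10 is the smallest core protein of the same particle and binds the synthase. Fib encodes fibrillarin, the methyltransferase of the box C/D particle. Nop17l is named after yeast Nop17, a factor that takes part in box C/D assembly in yeast. The name alone brought Nop17l into the group, and a nucleolar or snoRNP role of the fly gene was not tested.

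Values are log2 ratios of SL2 over Kc167, so a positive value lies on the SL2 side and a negative one on the Kc167 side. This direction was read from the order of names in the titles and is likely rather than stated; the base of 2 is likewise an assumption. If the direction were the opposite, all signs below would turn together. Means are over n = 3 replicates, each the average of a Kc167-in-Cy5 array and the flipped array of the same number. Each SE is limma's moderated one, in which a gene's own variance is drawn toward that shared by all features, so SEs are alike between genes. The plain SD of the 3 replicates was 0.10 for Nop60B, 0.089 for Nop10, 0.094 for Fib and 0.11 for Nop17l. A gene is called where the adjusted p of limma, over all 7201 features, is below 0.05.

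The box H/ACA genes Nop60B and Nop10 were more than 2-fold higher in SL2, Fib was slightly higher in SL2, and Nop17l was slightly higher in Kc167. Thus 3 of the 4 genes were called as higher in SL2 and 1 as higher in Kc167. Calls were common on these arrays: 28.4% of all features were called as higher in SL2 and 31.8% as higher in Kc167, or 60.2% together. Ratios of at least 2-fold on the SL2 side were rarer, at 2.99% of features, and held for Nop60B and Nop10.

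Nop60B had ratios of 1.03, 0.78 and 0.92 in replicates 1, 2 and 3 with Kc167 in Cy5, and of 1.60, 1.43 and 1.49 on the flipped arrays. All 6 arrays lay on the SL2 side, as the arrays of 47.2% of features lay on 1 side, and all flipped arrays stood above all others, where the orientations of 36.1% of features did not overlap. The mean was 1.21 ± 0.07 (SE, n = 3), or 2.31-fold higher in SL2, with a 95% interval from 1.05 to 1.36 and a limma adjusted p of 4.1e-07. Among all features, 1.85% had a higher ratio, and among the 2216 named genes it ranked 43rd from the SL2 end.

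Nop10 had ratios of 1.24, 1.06 and 1.46 with Kc167 in Cy5 and of 1.25, 1.08 and 0.87 on the flipped arrays. Again every array lay on the SL2 side, and here the orientations overlapped. Its mean of 1.16 ± 0.07 (SE, n = 3) was 2.24-fold, with a 95% interval from 1.01 to 1.32 and a limma adjusted p of 4.6e-07. It ranked 46th among the named genes.

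Fib had ratios of 0.40, -0.18 and 0.18 with Kc167 in Cy5 and of 0.07, 0.44 and 0.46 on the flipped arrays. One array lay on the Kc167 side, and the orientations overlapped. The mean was 0.23 ± 0.07 (SE, n = 3), or 1.17-fold higher in SL2, with a limma adjusted p of 0.016. This call was the least secure: without replicate 1 the adjusted p was 0.051, without replicate 3 it was 0.13, and with Kc167 in Cy5 alone the mean was 0.14 with an adjusted p of 0.38.

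Nop17l had ratios of -0.15, 0.06 and -0.32 with Kc167 in Cy5 and of -0.77, -0.55 and -0.30 on the flipped arrays. All flipped arrays lay on the Kc167 side, while the Kc167-in-Cy5 array of replicate 2 lay just above 0. The mean was -0.34 ± 0.07 (SE, n = 3), or 1.27-fold higher in Kc167, with a limma adjusted p of 0.0021. The orientations gave unequal sizes: Kc167 in Cy5 alone gave a mean of -0.14 (adjusted p = 0.29, limma) and the flipped arrays alone of -0.54 (adjusted p = 0.0037).

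**Figure D1:**
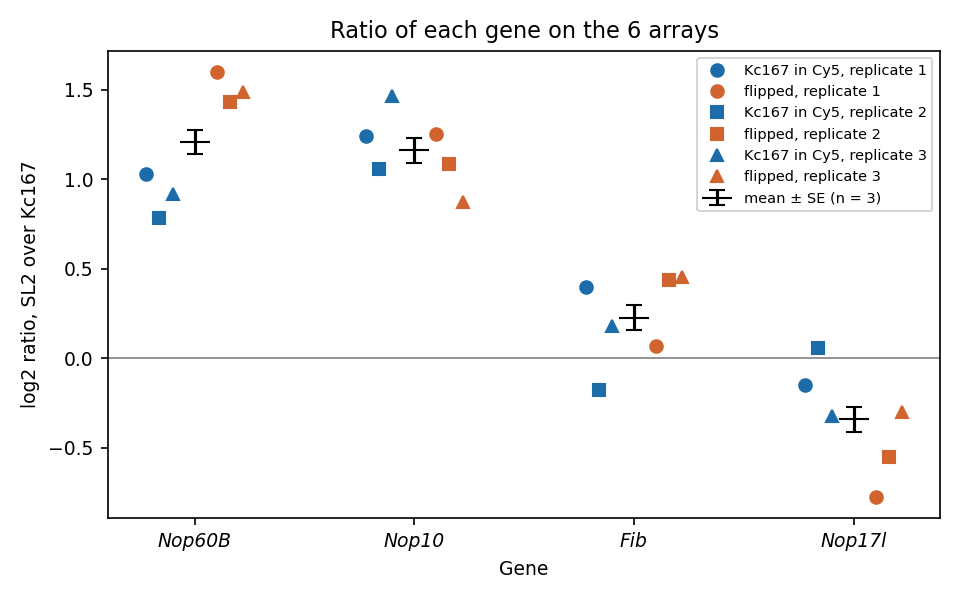
Log2 ratio of SL2 over Kc167 (vertical axis) of Nop60B, Nop10, Fib and Nop17l on each array; blue points are arrays with Kc167 in Cy5, orange points are flipped arrays, symbols mark the replicate number, and black bars give the mean and limma's moderated SE over n = 3 replicates. Nop60B and Nop10 lie above 0 on all 6 arrays, while Fib and Nop17l each have 1 array on the other side of 0.

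The protein partners of the box H/ACA particle had nearly equal ratios when the orientations were averaged. Nop10 minus Nop60B was -0.07, -0.04 and -0.03 in the 3 replicates, a mean of -0.05 ± 0.02 (SD, n = 3). The mean does not depend on which arrays are paired, but the small SD does. It rests on pairing arrays by number, and same-numbered arrays did not deviate together (below). Single arrays differed more: Nop10 exceeded Nop60B by 0.21, 0.28 and 0.55 with Kc167 in Cy5, and the difference was -0.35, -0.35 and -0.61 on the flipped arrays. The near equality thus holds for the average of the orientations and for neither one alone.

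Fib stood apart from the box H/ACA genes on every array. It was lower than Nop60B on all 6 arrays, by a mean difference of -0.98 ± 0.10 (SD, n = 3), and lower than Nop10 on all 6, by -0.94 ± 0.08. Fib exceeded Nop17l by 0.57 ± 0.17 (SD, n = 3), on 5 of 6 arrays. Nop10 exceeded Nop17l on all 6, by 1.50 ± 0.20. These differences between genes are given as descriptions, with no test. In order from the SL2 side the genes ran Nop60B, Nop10, Fib and Nop17l, and the order of the neighbours Nop60B and Nop10 changed with the dye orientation.

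**Figure D2:**
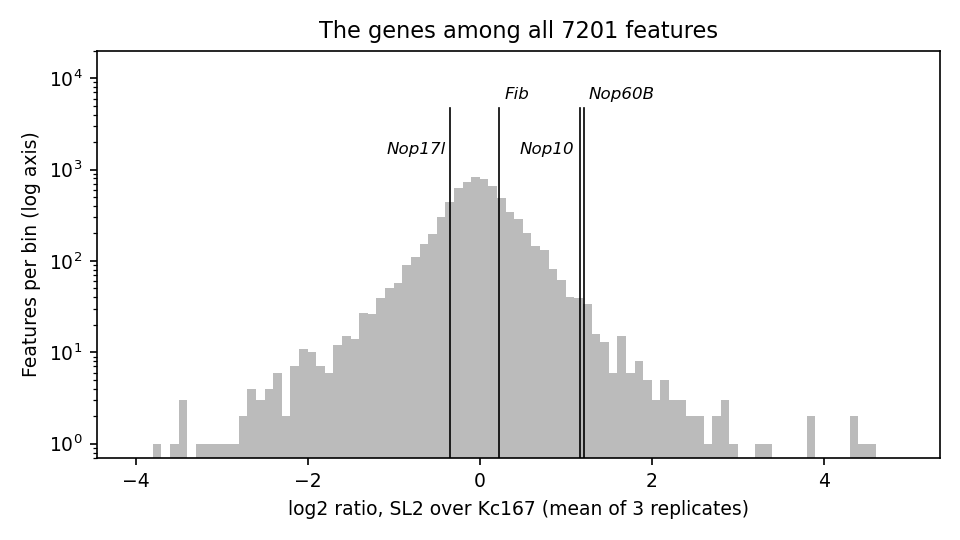
Number of features (vertical log axis) by mean log2 ratio of SL2 over Kc167 (horizontal axis), with black lines at the 4 genes. Nop60B (1.21) and Nop10 (1.16) lie in the upper tail, with 1.85% and 2.03% of the 7201 features above them, while Fib (0.23) and Nop17l (-0.34) lie within the bulk.

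The dye exchange allowed each gene's ratio to be set against itself in the opposite labelling. For Nop60B the flipped mean exceeded the Kc167-in-Cy5 mean by 0.60 ± 0.13 (SE, n = 3 pairs; limma adjusted p = 0.028), a difference called for 9.46% of all features. The call was lost without replicate 1 (0.61; adjusted p = 0.081) and without replicate 2 (0.57; adjusted p = 0.18), with little change in size. The side did not depend on the dye, since Nop60B had 0.91 (limma adjusted p = 0.00010) with Kc167 in Cy5 alone and 1.51 (adjusted p = 7.9e-06) on the flipped arrays alone.

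The other genes had no called orientation difference. Flipped minus Kc167-in-Cy5 was -0.19 ± 0.16 (SE, n = 3 pairs) for Nop10, 0.18 ± 0.18 for Fib and -0.40 ± 0.16 for Nop17l. The limma adjusted p was 0.47, 0.54 and 0.14 in the same order. Leaving out replicate 3 gave Nop17l a called difference of -0.62 (adjusted p = 0.026). The laser power and gain of the Cy5 channel also differed between the orientations, and their part in these differences was not tested.

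**Figure D3:**
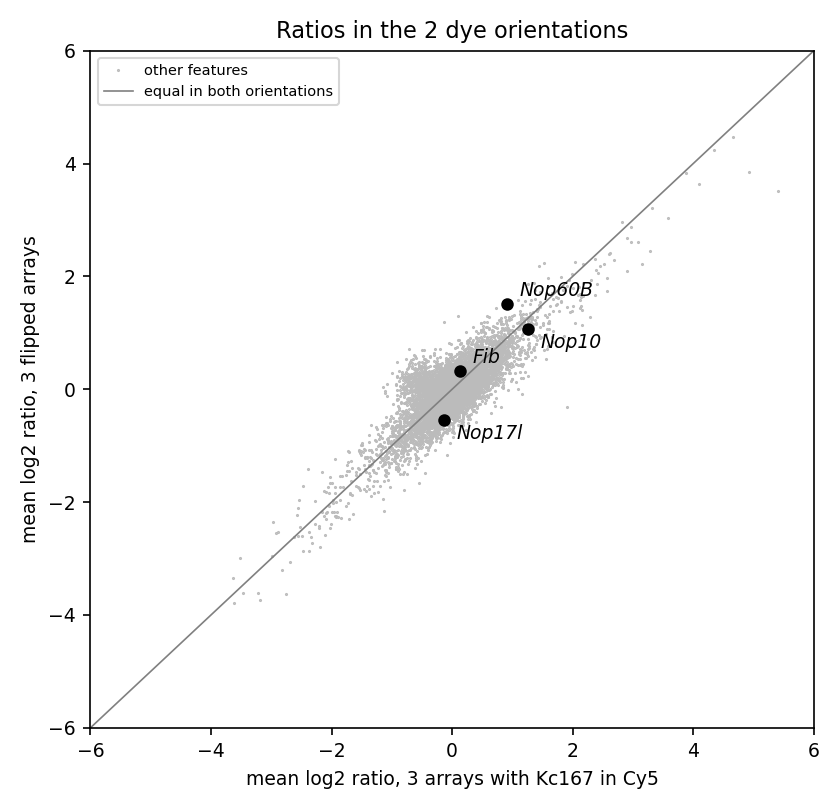
Mean log2 ratio of SL2 over Kc167 on the 3 flipped arrays (vertical axis) against that on the 3 arrays with Kc167 in Cy5 (horizontal axis), for all 7201 features (grey) and the 4 genes (black); the line marks equal ratios. Nop60B lies above the line (1.51 against 0.91), Nop17l below it (-0.54 against -0.14), and Nop10 and Fib closer to it.

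Each gene was represented by 1 clone printed as 2 neighbouring spots, so a gene's value rests on a single insert. Gaps between the spots of a clone were read on each array. For Nop10 the 2 spots differed by at most 0.19 on any array and for Nop17l by at most 0.25, while the largest gap was 0.37 for both Fib and Nop60B. The median gap over all clones and arrays was 0.14, against medians of 0.12 for Nop10, 0.18 for Nop60B, 0.19 for Nop17l and 0.21 for Fib. The spots of Fib had opposite signs on the flipped array of replicate 1 (-0.12 and 0.25), and those of Nop17l did on the Kc167-in-Cy5 array of replicate 2 (-0.0074 and 0.12). The spot gaps of Fib were thus similar in size to its mean ratio, and those of Nop60B and Nop10 were far smaller than theirs.

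The clones printed near a gene's clone were also read, since the ratio can drift with place. Around Nop10, the median of the 24 nearest clones was above 0 on every array, from 0.07 to 0.33. With these medians removed, Nop10 had 0.96 and Nop60B had 1.21, Fib had 0.30 and Nop17l had -0.26, and all 4 calls remained by limma. Near Fib the local median ran from -0.26 to 0.15, and near Nop17l from -0.21 to 0.20. Near Nop60B it was -0.07, -0.22 and -0.09 with Kc167 in Cy5, and -0.007, 0.18 and 0.20 on the flipped arrays. The clones around Nop60B thus moved between the orientations in the same direction as Nop60B itself. Their share in its orientation difference was not tested.

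All 4 genes lie on chromosome arm 2R, a position the rule did not use. Of 421 named genes of 2R, 32.1% were called as higher in SL2 and 24.9% as higher in Kc167; their median ratio was 0.02, as was that of all named genes. RefSeq places 7 snoRNA genes inside Nop60B: 1 named as a pseudouridine guide, 4 as methylation guides and 2 as orphans of the box C/D class. Fib holds 1 snoRNA gene. Many fly snoRNAs are cut from introns of such host genes; the values of these clones were not read as values of the snoRNAs.

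Nop10 overlaps the coding gene CG12935 and Nop17l overlaps PolZ1, the gene of a DNA polymerase subunit. Neither had a measured value of its own, and whether the spotted cDNA reports on 1 strand is not given in the sources used here. For these genes a share of the signal from the overlapping gene was not tested. Around each gene, the 10 coding genes before it and the 10 after it were looked up, and 15 in all had been measured. Of these, 3 were higher in SL2, 3 were higher in Kc167 and 9 did not pass. Among all named genes, 30.5% were called as higher in SL2 and 28.7% as higher in Kc167. The neighbours of Nop10 were the most varied, from -0.51 ± 0.06 (SE, n = 3) for dgo, a planar polarity gene, to 1.33 ± 0.09 for the ribosomal protein gene RpS15Ab. RpS15Ab is the 7th coding gene after Nop10 and comes from a gene family with near copies. The 3 measured neighbours of Nop60B ran from -0.043 to 0.34.

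The named genes nearest to each gene were found by the Euclidean distance over the 6 ratios. Nearest to Nop60B were bcn92, at a distance of 0.40 with a mean of 1.17 ± 0.07 (SE, n = 3), and the tubulin gene betaTub85D, at 0.46 with 1.26 ± 0.07. Nearest to Nop10 were the mitochondrial ribosomal protein gene mRpL54 (distance 0.39, mean 1.12 ± 0.07) and CG7408 (0.46, 1.14 ± 0.07). Like Nop60B, bcn92 was higher on every flipped array than on any with Kc167 in Cy5. It was chosen by closeness over these same 6 ratios, so this likeness is partly built in. The orientations of 36.1% of all features did not overlap. Fib lay closest to Ssl1, the gene of a TFIIH subunit (distance 0.22, mean 0.21 ± 0.07), and to cher, the filamin gene (0.32, 0.17 ± 0.08), which did not pass. Nop17l lay closest to ReepA (0.23, -0.27 ± 0.07) and Iru (0.26, -0.38 ± 0.07).

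The wider machinery of ribosome production was read from 8 lists. Apart from the 4 genes above they matched 97 fly genes, of which only 10 had complete values under a name. Of these 10, 7 were higher in SL2, 2 were higher in Kc167 and 1 did not pass, with a median ratio of 0.23 against -0.02 over all features and 0.02 over all named genes. The background for named genes was 30.5% called as higher in SL2 and 28.7% as higher in Kc167. Without replicate 2 the count on the SL2 side was 4 of 10, and with Kc167 in Cy5 alone it was also 4.

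Both measured genes of the nucleolar and processome list were called on the SL2 side. Nnp-1, a nucleolar protein gene, had 0.57, 0.68 and 0.81 with Kc167 in Cy5 and 0.66, 0.38 and 0.48 on the flipped arrays. All arrays agreed in side, with a mean of 0.60 ± 0.07 (SE, n = 3; limma adjusted p = 3.4e-05). Nopp140, a nucleolar phosphoprotein that binds snoRNPs, had 0.18 ± 0.07 and an adjusted p of 0.048. Its call was lost without replicate 1 (0.13; adjusted p = 0.18, limma) and without replicate 2 (0.17; adjusted p = 0.15).

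Factors of the large subunit and of RNA decay lay on the same side. eIF6, which holds the new large subunit apart from the small one, ran from 0.33 to 0.85 with Kc167 in Cy5 and from 0.81 to 0.98 on the flipped arrays. Its mean of 0.77 ± 0.08 (SE, n = 3; 1.71-fold; limma adjusted p = 1.4e-05) was the largest of these 10 genes on the SL2 side. Non1, a nucleolar GTPase gene, had 0.26 ± 0.07, and its call was lost without replicate 2 (0.19; adjusted p = 0.096, limma) and on the flipped arrays alone (0.077; adjusted p = 0.60). Dis3, the gene of the exosome's catalytic subunit, had 0.54 ± 0.07 (limma adjusted p = 7.0e-05). Its 2 clones had means of 0.31 and 0.76, a spread that the SE of the gene does not contain.

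The genes of RNA polymerase I factors were divided. Tif-IA, which encodes the initiation factor that couples the polymerase to growth, had 0.34 ± 0.08 (SE, n = 3; limma adjusted p = 0.0035), with 1 array below 0; with Kc167 in Cy5 alone it had 0.16 and an adjusted p of 0.23. TAF1C-like, named for a subunit of the polymerase's promoter selectivity factor, had -1.23, -1.06 and -1.01 with Kc167 in Cy5 and -1.61, -1.45 and -1.36 on the flipped arrays. It was 2.44-fold higher in Kc167, at -1.29 ± 0.07 (SE, n = 3; limma adjusted p = 3.4e-07), about as far from 0 as Nop60B on the opposite side.

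Among regulators of growth, Tsc1, which encodes a brake on TOR signalling, lay on the Kc167 side on all 6 arrays. Its ratio was -0.83 ± 0.09 (SE, n = 3; 1.78-fold; limma adjusted p = 2.1e-05), though single arrays ran from -1.35 to -0.25. Max, the partner of the growth regulator Myc, had 0.21 ± 0.07 with 2 arrays below 0; it was not called without replicate 1 (0.17; adjusted p = 0.10, limma) or without replicate 2 (0.20; adjusted p = 0.083). With the flipped array of replicate 1 left out Max had 0.099 (adjusted p = 0.31, limma), and neither orientation alone called it (0.13 for Kc167 in Cy5, 0.29 for the flipped arrays; adjusted p = 0.29 and 0.083). REPTOR, a transcription factor held back by TOR, had -0.18 ± 0.08 and did not pass (adjusted p = 0.062); without replicate 2 it had -0.27 and passed (adjusted p = 0.016).

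**Figure D4:**
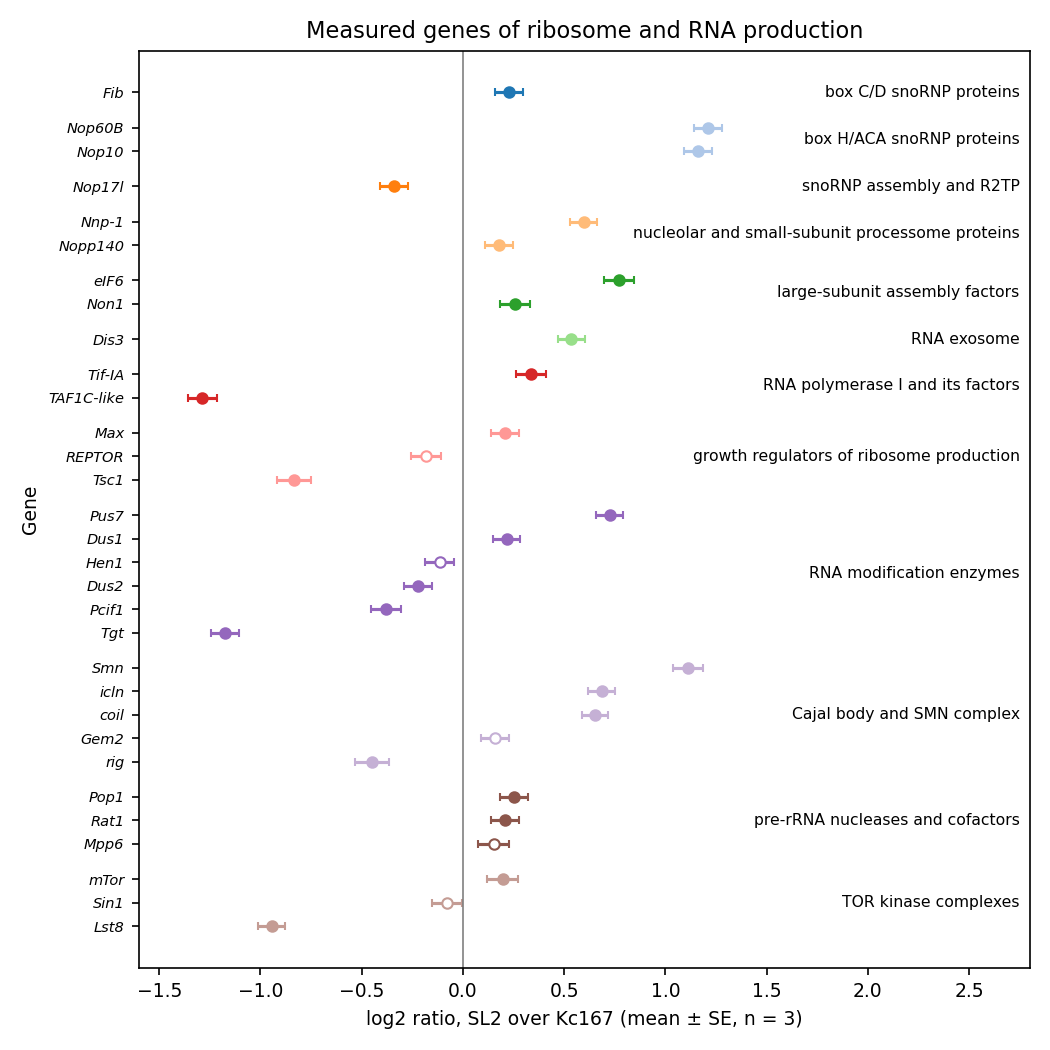
Mean log2 ratio of SL2 over Kc167 (horizontal axis; bars are limma's moderated SE, n = 3) of the measured genes of ribosome and RNA production, grouped by list; filled points passed limma's adjusted p threshold of 0.05 and open points did not. Nop60B (1.21) and Nop10 (1.16) are furthest on the SL2 side of the genes drawn, and TAF1C-like (-1.29) is furthest on the Kc167 side.

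A second group of 18 genes was added by name, once it was known which genes the arrays held. It covers RNA modification outside the snoRNPs, the Cajal body and SMN complex, nucleases of ribosomal RNA and TOR kinase complexes, and 17 had complete values. Of the 17, 8 were higher in SL2, 5 were higher in Kc167 and 4 did not pass, with a median of 0.16, beside the 30.5% and 28.7% of named genes called toward SL2 and Kc167. With the flipped arrays alone 5 were called on the SL2 side, and with Kc167 in Cy5 alone 2 were called on the Kc167 side.

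The joint list of Cajal body and SMN complex genes gave 3 calls toward SL2 and 1 toward Kc167 among 5. Of these, the Cajal body is where snoRNPs and spliceosomal particles mature. Smn, the survival motor neuron gene, had 0.75, 1.23 and 0.87 with Kc167 in Cy5 and 1.32, 1.30 and 1.20 on the flipped arrays. Its mean was 1.11 ± 0.07 (SE, n = 3; 2.16-fold; limma adjusted p = 9.8e-07), close to those of Nop60B and Nop10. The coilin gene coil had 0.65 ± 0.06 and icln 0.69 ± 0.07, both on the SL2 side on all 6 arrays. On the Kc167 side was rig, the fly Gemin5 gene, with -0.45 ± 0.08 (limma adjusted p = 0.0011); with Kc167 in Cy5 alone it had -0.20 and an adjusted p of 0.15. Gem2 had 0.16 ± 0.07 and did not pass; with Kc167 in Cy5 alone it had 0.33 and passed (limma adjusted p = 0.016).

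Genes listed as RNA modification enzymes that work without a guide RNA or outside the ribosome went both ways. The list rests on names, and the activity of each product in the fly was not tested. Pus7, a pseudouridine synthase that acts alone, had 0.72 ± 0.07 (SE, n = 3; limma adjusted p = 9.0e-06), with 0.92, 1.09 and 0.97 when Kc167 was in Cy5 and 0.58, 0.45 and 0.33 on the flipped arrays. Its orientation gap thus ran opposite to that of Nop60B. Tgt, which encodes a transfer RNA guanine transglycosylase subunit, had -1.17 ± 0.07 (limma adjusted p = 4.6e-07) and lay on the Kc167 side on all 6 arrays. Pcif1 had -0.38 ± 0.07, with -0.27 and -0.49 for its 2 clones (-0.20 with Kc167 in Cy5 alone; adjusted p = 0.10, limma). The dihydrouridine synthase gene Dus1 had 0.22 ± 0.07 and its relative Dus2 had -0.22 ± 0.07, and neither call held with Kc167 in Cy5 alone or without replicate 1. The 2 clones of Dus1 had means of -0.0048 and 0.44, so its value rests on 1 of them. Dus2 was also lost without replicate 3 (-0.19; adjusted p = 0.12, limma), and with local medians removed it had -0.021. Hen1, a methyltransferase gene of small RNAs, had -0.11 ± 0.07 and did not pass; with local medians removed it had -0.25 and passed.

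Of the nucleases, Pop1 of RNase P and MRP had 0.25 ± 0.07 (SE, n = 3) and the exonuclease gene Rat1 had 0.21 ± 0.07, both called; on the flipped arrays alone neither was (0.024 and 0.15). Rat1 was not called with Kc167 in Cy5 alone either, at 0.27 (limma adjusted p = 0.079). With local medians removed it had 0.15 and was not called (adjusted p = 0.080). Without replicate 1 the calls of both Pop1 and Rat1 were lost as well (limma adjusted p = 0.066 and 0.064). Rat1 was also lost without replicate 3, at 0.17 (adjusted p = 0.17). The exosome cofactor gene Mpp6 had 0.15 ± 0.08 and did not pass; without replicate 1 it had 0.24 and passed. In the TOR list, Lst8, a subunit of both TOR complexes, had -0.94 ± 0.07 (limma adjusted p = 1.8e-06) and was on the Kc167 side on all 6 arrays. The kinase gene mTor had 0.20 ± 0.08 (limma adjusted p = 0.049) but a mean of -0.062 on the flipped arrays, and its call was lost without replicate 2 (0.15; adjusted p = 0.20) and without replicate 3 (0.15; adjusted p = 0.23). Sin1 had -0.079 ± 0.07 and did not pass.

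As to the arrays as a whole, of 16896 spots, 15104 to 15885 carried a value where Kc167 was in Cy5 and 16710 to 16844 did on flipped arrays, and intensities were not used, so signal over background is unknown. The number of arrays limits the precision. Of 15 hemocyte markers, 6 were measured: Pxn (1.65) and NimC1 (0.80) were higher in SL2, Ppn (-1.14), Tep4 (-0.66) and Pvr (-0.43) were higher in Kc167, while SPARC (0.11) did not pass. Of the called markers among these, Pvr was not called with Kc167 in Cy5 alone, at -0.30 (adjusted p = 0.055, limma). Ratios do not show whether a marker is present in a line. The neuron gene nSyb (0.27) and the muscle gene Act88F (0.42) were higher in SL2, while futsch (0.092) and up (0.099) did not pass, and none of 3 fat body genes did (-0.066 to 0.14). With Kc167 in Cy5 alone neither nSyb (0.19; adjusted p = 0.11, limma) nor Act88F (0.084; adjusted p = 0.58) was called. Act88F had 0.26 with the flipped array of replicate 1 left out, and nSyb was not called without replicate 3 (0.23; adjusted p = 0.053, limma). The part of such differences in the ratios of Nop60B, Nop10, Fib and Nop17l was not tested.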

How the data were processed

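The authors deposited 1 log ratio for each spot, computed after normalisation, per the labels, and read here as log2. The sources used here do not give the method of normalisation, the base or the direction. Slides were quantified with QuantArray without background subtraction, per the labels. Gene names came from the platform annotation, updated by Entrez identifier through RefSeq (Release 6 plus ISO1 MT). RefSeq served for names, arms, gene order, overlapping genes and snoRNA genes within others. The 2 spots of a clone were averaged, then the complete clones of a gene; 7581 of 8448 clones had values on all 6 arrays. Arrays of the same number were averaged over the orientations, and the mean of 3 was tested against 0 with limma 3.58.1 in R 4.3.3 (lmFit, eBayes, two-sided), with Benjamini-Hochberg adjustment over all 7201 features. Each feature had 2 residual degrees of freedom, to which the moderation added 7.57. Orientation differences were tested the same way. Only the limma test was run on simulated data, with replicate values drawn from its own fitted variance model. The averaging of spots, clones and orientations was not simulated.

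The genes and lists were chosen with earlier results of these data known. Of 205 list entries, 42 matched no symbol or unique synonym. The text names the genes of the rule, up to 4 measured genes of each list by size of ratio, all of the snoRNP lists, and the 2 named genes nearest to each. Genes of the added lists, the neighbours and the markers fall outside it. The added genes were chosen once the names on the arrays were known. Neighbours were looked up by gene order, and single ones were named after their values were seen. All measured genes of the marker lists were reported. Alternatives covered pairing, each orientation, normalisation, local medians, single clones, incomplete features, the variance model, the log base and replicates left out.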

Additional observations from a re-analysis of the deposited data

Results flagged for a closer look

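Ratios that differed between the dye orientations were sought among the 4 genes, the list genes and the marker genes, by limma on the 3 same-numbered pairs. Nop60B had flipped minus Kc167-in-Cy5 = 0.60 (adjusted p = 0.028). In the added lists, Pus7 had -0.54 (adjusted p = 0.041) and mTor -0.52 (adjusted p = 0.048). Among the markers, Pxn had -1.02 (adjusted p = 0.015) and Act88F 0.67 (adjusted p = 0.033). Over all features, 9.46% had such a difference. Of the 5 genes, mTor had means of opposite sign in the orientations.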

How the results depend on the processing

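Nop60B and Nop10 kept their side and their call under all 17 alternatives; apart from a reading as natural logarithms, Nop60B ran from 0.91 to 1.51 and Nop10 from 0.96 to 1.26. Read as natural logarithms, the log2 ratios would be 1.74 for Nop60B, 1.68 for Nop10, 0.33 for Fib and -0.49 for Nop17l, with the same p-values. Fib kept its call under 13 of 17 alternatives and Nop17l under 15. Some alternatives could change little: the natural-logarithm reading could alter no side or call. The fits with a dye term, single clones, incomplete features and the variance models left these ratios as they were, so only the p-values could change. With Kc167 in Cy5 alone, Fib (0.14) and Nop17l (-0.14) were not called, so the count on the Kc167 side was 0, the list count on the SL2 side was 4 and the added count on the Kc167 side was 2. On the flipped arrays alone the added count on the SL2 side was 5, and mTor turned to -0.062. Without pooling of variance between features, which leaves 2 degrees of freedom, Fib (0.23; adjusted p = 0.11) and Nop17l (-0.34; adjusted p = 0.080) were not called by limma's unmoderated fit, the count on the Kc167 side was 0, the list counts were 3 toward SL2 and 1 toward Kc167, the added counts 4 and 2, and over all features 938 and 988 were called. With each replicate left out in turn, Fib ran from 0.18 to 0.28, the list count on the SL2 side from 4 to 7, and the orientation difference from 0.57 to 0.61 for Nop60B and from -0.62 to -0.29 for Nop17l. The cause of these changes was not tested. Single clones as features were run for the ratios of the 4 genes alone. Same-numbered arrays did not deviate together (correlations of -0.07, 0.11 and -0.10 for numbers 1, 2 and 3), and only number 2 matched its own number best; with the replicate number as a random replicate block in a fit of 6 arrays with a dye term, Fib had 0.23 (adjusted p = 0.036) and Nop17l -0.34 (adjusted p = 0.0025), and no call of the 4 genes changed. Of 640 pairs of another list gene and an alternative, 51 lost a call with the sign kept and 5 gained one. In 1 further pair the sign turned and the call was lost (mTor on the flipped arrays alone). The sign differed from that of the reported value in 12 pairs, 11 of them of genes that were not called, and in 1 of a called gene (mTor, above).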
